A study of Mus musculus with 2 samples.

Results

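Messenger RNA of blood clotting was described in mouse liver for 36 genes, chosen by their known role as coagulation factors, fibrinogen chains, anticoagulants, fibrinolysis proteins or enzymes of the vitamin K cycle. The array named 18193 genes through probe sets that match a single gene, and 35 of the 36 were among them. The comparison asked how the liver's transcripts differ after injury of a distant organ, the kidney. All mice were male wild-type C57BL/6, 8 weeks old and operated on, and the groups differed in the operation. The sham pool held liver of 3 mice after a sham operation. The injury pool held liver of 3 mice whose kidneys were both made warm-ischaemic for 30 minutes and then reperfused. Livers were collected 24 hours later, and 100 mg of frozen tissue from each group's mice went into a single tube. Each pool gave 1 Affymetrix array, so the spread between mice is unknown, no test was run, and each value below describes these 2 pools of whole liver. Their number limits the precision.

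Most clotting proteins are made by hepatocytes and secreted as inactive precursors. Tissue factor and factor VII start the cascade, the factors of the intrinsic branch amplify it, and thrombin converts fibrinogen to fibrin, which factor XIII crosslinks. Antithrombin, heparin cofactor II and the protein C system hold the cascade back, and plasmin, made from plasminogen, dissolves the clot. Several of these proteins need a carboxylation of glutamate residues that depends on vitamin K. Fibrinogen is also a classical acute phase protein, made in larger amounts by an inflamed liver.

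Signals are probe set intensities in arbitrary units, and differences are on the scale of log2(signal + 16), injury pool minus sham pool. A gene entered when its brighter signal reached the median of that array, 257.0 (sham) or 254.1 (injury), and the probe set that was brightest on average over both arrays, on the log2 scale, stood for it. Of the 36 genes, 32 entered, 31 of them with both signals at or above the medians. The trimmed mean signal was 500.0 on both arrays. The 6 hepatocyte markers checked, albumin and transthyretin (Ttr) among them, were all measured, and none of the signals was at 0.

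The clotting genes did not move as a block. All 3 fibrinogen chains and thrombomodulin had higher signals in the injury pool, while factor VII, the factor XIII B chain, plasma prekallikrein, heparin cofactor II and both enzymes of the vitamin K cycle had lower signals. At a threshold of 2-fold, 6 of 32 genes (18.8%) were lower, against 9.59% of the 13117 genes that entered. On the higher side, 3 of 32 (9.38%) passed 2-fold, against 8.71% of all genes, which is close to that background. The median difference was -0.39 over the 32 genes and -0.01 over all genes, whose quartiles were -0.45 and 0.42. By any amount, 17 of 32 (53.1%) were lower, against 50.7% of all genes, and 15 (46.9%) were higher, against 49.3%. Where a gene had several probe sets, their log2 differences scattered with an SD of 0.72 around the gene's mean, so a single difference near 1 is not far outside that scatter.

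**Figure D1:**
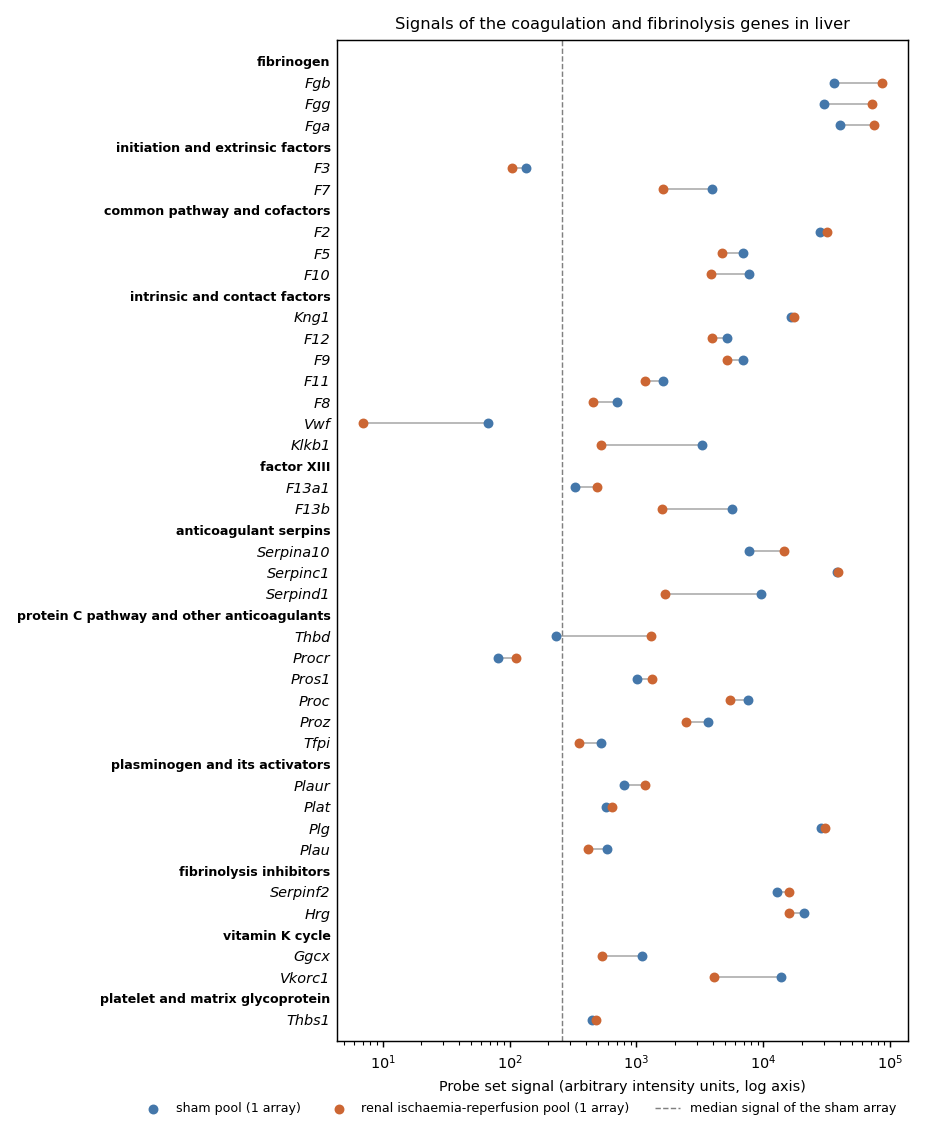
Probe set signal (arbitrary units, log axis) of the 35 measured genes, grouped by role, in the sham pool (blue) and the injury pool (orange), 1 array each, with the sham array's median of 257.0 dashed. The fibrinogen chains lie at the top of the scale in both pools, and F3, Vwf and Procr lie under the median in both. Signals of different probe sets are not comparable as amounts.

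Fibrinogen, the precursor of fibrin, is a protein of 3 chains, and the probe set of each was brighter in the injury pool. Fgb, the beta chain, went from 35738 in sham liver to 85966 after kidney injury, a log2 difference of 1.27 (2.4-fold). Fgg, the gamma chain, went from 30290 to 71793, a log2 difference of 1.24 (2.37-fold). Fga, the alpha chain, went from 40354 to 74117, a log2 difference of 0.88, which stayed under 2-fold (1.84-fold). By rank among 45037 probe sets, Fgb moved from place 41 to place 1, Fga from 28 to 4 and Fgg from 64 to 7. Fgb was thus the brightest probe set of the injury array. At that end of the scale the arrays differed, with highest signals of 55427 and 85966, and 5 of the 6 hepatocyte markers were also higher, though none reached 2-fold. The difference was 0.73 for albumin (Alb) and -0.22 for Apob, the marker that was lower, and the median over the 6 was 0.55, with signals that summed to 215381 for sham and 318118 for injury. By quantile normalization, which forces the same distribution on both arrays, the differences were 0.71 for Fgb, 0.74 for Fgg and 0.35 for Fga, while the hepatocyte markers had a median of 0.08. With the bacterial hybridisation controls as the zero point they were 0.98, 0.96 and 0.59. The 3 chains were higher under each scaling tried. Fgb and Fgg passed 2-fold under some of the scalings, and Fga under none.

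The start regions of the fibrinogen genes are shown because the 3 chains were higher together, and those of Serpind1 and Klkb1 because they had the lowest differences of the 32 genes. Each runs from 250 bases before to 50 bases after the RefSeq start, in GRCm38.p6, read in the direction of the gene. Capitals mark CTGGGA on either strand, so TCCCAG is a match on the opposite strand. This hexamer is the core of an element known from genes that interleukin 6 induces in liver.
Fga, chr3:83025903-83026202, plus strand: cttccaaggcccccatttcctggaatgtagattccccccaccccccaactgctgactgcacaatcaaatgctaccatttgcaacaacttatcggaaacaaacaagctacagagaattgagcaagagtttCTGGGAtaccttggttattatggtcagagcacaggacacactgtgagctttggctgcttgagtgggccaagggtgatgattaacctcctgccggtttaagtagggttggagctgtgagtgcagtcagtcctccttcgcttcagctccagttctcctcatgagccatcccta
Fgb, chr3:83049814-83050113, minus strand: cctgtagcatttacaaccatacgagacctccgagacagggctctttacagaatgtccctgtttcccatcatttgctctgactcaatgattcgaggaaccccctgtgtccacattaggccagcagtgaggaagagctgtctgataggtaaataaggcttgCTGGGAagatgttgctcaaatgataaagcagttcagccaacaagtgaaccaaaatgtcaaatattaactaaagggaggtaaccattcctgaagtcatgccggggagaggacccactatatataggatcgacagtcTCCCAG
Fgg, chr3:83007474-83007773, plus strand: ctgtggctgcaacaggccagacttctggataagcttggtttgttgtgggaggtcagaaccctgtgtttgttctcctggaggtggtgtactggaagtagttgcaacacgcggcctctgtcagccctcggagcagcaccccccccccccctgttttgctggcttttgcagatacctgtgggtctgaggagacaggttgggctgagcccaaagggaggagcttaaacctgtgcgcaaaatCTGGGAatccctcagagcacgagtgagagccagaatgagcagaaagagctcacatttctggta
Serpind1, chr16:17331121-17331420, plus strand: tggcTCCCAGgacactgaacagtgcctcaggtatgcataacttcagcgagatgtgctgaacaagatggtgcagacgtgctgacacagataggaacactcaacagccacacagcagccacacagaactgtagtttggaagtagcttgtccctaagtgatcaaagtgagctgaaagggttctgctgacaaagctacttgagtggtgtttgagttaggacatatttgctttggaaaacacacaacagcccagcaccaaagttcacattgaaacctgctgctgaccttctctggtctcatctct
Klkb1, chr8:45294786-45295085, minus strand: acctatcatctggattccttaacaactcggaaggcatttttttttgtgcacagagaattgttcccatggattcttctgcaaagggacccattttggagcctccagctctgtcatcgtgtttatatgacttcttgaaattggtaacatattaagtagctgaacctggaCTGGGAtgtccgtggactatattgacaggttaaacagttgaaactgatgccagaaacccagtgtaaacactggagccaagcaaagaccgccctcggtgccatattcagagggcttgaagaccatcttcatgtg
All 5 windows held the hexamer, the 3 of the higher genes and the 2 of the lower ones. In the direction of the gene it began 121 bases before the start in Fga, 91 before it in Fgb, 13 before it in Fgg and 83 before it in Klkb1. Serpind1 had it on the opposite strand 246 bases before the start, and Fgb had a further match on that strand, 44 bases after it. Of all 32851 windows of this length, 31.8% held CTGGGA on either strand, and of the 29 windows found for 27 of the 36 genes, 13 (44.8%) did. TTGCNNAA, a form of the C/EBP motif, was in 10.8% of all windows and 37.9% of those of the clotting genes, Fga, Fgb and Klkb1 among them. TTCNNNGAA, a STAT motif, was in 8.3% of all windows and in 4 of the 29, those of F9, Fga, Fgb and Pros1. GTTAAT, an arm of the HNF1 motif, was in 7.1% of all windows and in 5 of the 29, again including Fga and Fgb. In the 5 windows printed, none of these matches overlapped CTGGGA. The motifs were picked with the fibrinogen sequences in view, and a match is a run of letters, not a measured binding site.

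Of the pair that starts the cascade, factor VII was lower and tissue factor was too dim to compare. F7, the protease that acts with tissue factor, went from 3916 to 1616, a log2 difference of -1.27. F3, tissue factor itself, had signals of 135.8 and 104.2, under the array median in both pools, and no fold is given. In whole liver, fewer cells of a type and less RNA per cell cannot be told apart, here and for the genes that follow.

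In the common pathway, factors X and V had lower signals and prothrombin differed little. F10, whose product converts prothrombin to thrombin, went from 7769 to 3899, a log2 difference of -0.99, just short of 2-fold. It passed 2-fold by quantile normalization (-1.01), with the loess trend removed (-1.02) and against the hybridisation controls (-1.28). Its other probe sets also gave lower signals, at -0.90 and -0.51. F5, the cofactor of factor X, went from 6900 to 4724 (-0.55), and a second probe set of F5 gave -0.41. F2, prothrombin, had signals of 27891 and 31962, a log2 difference of 0.20 that turned to -0.14 by quantile normalization and to -0.09 against the hybridisation controls.

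Among the intrinsic and contact factors, plasma prekallikrein stood apart from the others. Klkb1, the protease that activates factor XII and releases bradykinin, went from 3266 in sham liver to 529.7 after kidney injury. Its log2 difference of -2.59 (6.01-fold) was the lowest of the 32 genes. Its partners in the contact system differed far less. F12, the factor that starts this branch, went from 5207 to 3966 (-0.39), and F11, which activated factor XII cleaves, from 1628 to 1162 (-0.48). Kng1, kininogen, had signals of 16383 and 17564, a log2 difference of 0.10 by 1 probe set and -0.29 by the other. The first value was negative under quantile normalization, the loess correction and the hybridisation controls, and the nearly identical neighbouring gene Kng2 makes Kng1 uncertain. F9, the haemophilia B factor, went from 6917 to 5129 (-0.43). F8, the haemophilia A factor, which endothelial cells make, went from 697.2 to 451.7 (-0.61). Vwf, its carrier in plasma, had signals of 68.3 and 7.0, under the median in both pools. All of F8, F9, F11 and F12 were lower under each alternative, and none reached 2-fold.

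The chains of factor XIII went in opposite directions. F13b, the carrier chain made by hepatocytes, had signals of 5625 and 1590, a log2 difference of -1.81 (3.51-fold). F13a1, the catalytic chain, which comes mainly from macrophages and platelets, went from 325.8 to 485.3, a log2 difference of 0.55. It was not much above the array median in either pool.

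The 3 anticoagulant serpins each behaved differently. Serpind1, heparin cofactor II, which inhibits thrombin, went from 9600 in sham liver to 1670 after kidney injury. Its log2 difference of -2.51 (5.7-fold) was second only to that of Klkb1 on the lower side. Serpinc1, antithrombin, the main plasma inhibitor of thrombin and factor X, had signals of 37802 and 38767, a log2 difference of 0.04. That difference was negative under quantile normalization (-0.42), the loess correction (-0.15) and the hybridisation controls (-0.25). Serpina10, the inhibitor that acts on factor X with protein Z, went the other way, from 7671 to 14527 (0.92). Its probe set carries the suffix _s_at and can cross-hybridise, so that value is uncertain.

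In the protein C system, thrombomodulin was the exception on the higher side. Thbd, the endothelial receptor that turns thrombin into an activator of protein C, was under the array median in sham liver, at 233.6, and reached 1305 after kidney injury. Against that median it was at least 4.84-fold higher, and its measured log2 difference of 2.40 was the highest of the 32 genes. Proc, protein C, went from 7600 to 5476 (-0.47), and Pros1, its cofactor protein S, from 1010 to 1329 (0.39). Proz, protein Z, went from 3667 to 2473 (-0.56), and a second probe set gave -1.12. Procr, the protein C receptor of endothelium, had dim signals of 81.9 and 113.0. Tfpi, the inhibitor of tissue factor, was read by 4 probe sets that disagreed in sign. They ranged from -0.56, for the brightest (529.5 and 353.9), to 0.33, so no direction is given for Tfpi.

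Sinusoidal endothelial markers, set beside Thbd, differed in both directions. Of 10 such markers, all measured, only Lyve1 (3.01) was past 2-fold on the higher side and 2 were on the lower side, and the median was -0.40. Their signals summed to 9547 for sham and 9562 for injury, and none was at 0. Fcgr2b and Kdr, which had the highest mean log2 signals of them, stood at -0.30 and 0.08. The brightest in sham liver alone was Clec4g, at -1.05, and after injury alone Lyve1. Neutrophil markers were uneven, with a median of 0.22 over 6 of 8 and a summed signal of 3772 and 5558 over 7. S100a8 stood at 4.53, S100a9 at 1.86 and Cxcr2 at -1.32. Each of these rests on a signal under the array median, 45.6 and 204.8 in sham liver and 107.6 after injury. Ngp (0.37), Mpo (0.07) and Elane (-0.44), bright on both arrays, differed less. The part of endothelial cells and neutrophils in the values of Thbd and of Plaur was not tested.

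The genes of fibrinolysis differed little by their brightest probe sets, with none of 6 past 2-fold. Of all genes, 8.71% were past 2-fold on the higher side and 9.59% on the lower, so that count is not far from the background. Plg, plasminogen, had signals of 28686 and 30548, a log2 difference of 0.09 that was negative under quantile normalization (-0.27), the loess correction (-0.07) and the hybridisation controls (-0.19). Plau, urokinase, which activates it, went from 581.5 to 411.9 (-0.48). Plaur, the urokinase receptor, went from 799.7 to 1168 (0.54). Plat, tissue plasminogen activator, had signals of 578.9 and 639.2 (0.14) by its brightest probe set. A second probe set had a sham signal of 69.7, under the array median, and an injury signal of 404.5, a bound of at least 1.54-fold. Serpinf2, the plasmin inhibitor of plasma, went from 12847 to 15932 (0.31). Hrg, the histidine-rich glycoprotein that binds plasminogen and heparin, went from 20909 to 15973 (-0.39), on a _s_at probe set with the same uncertainty as that of Serpina10. Cpb2, the carboxypeptidase that protects fibrin, was not analysed here.

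Thbs1, thrombospondin 1, a platelet and matrix glycoprotein, showed the same split between probe sets as Plat. The brightest gave signals of 445.7 and 479.0 (0.10), and another 67.7, under the array median, and 314.1, a bound of at least 1.21-fold. Platelet markers stood at a median of 0.15 over 6 of 7 genes, with none past 2-fold, and their summed signal was 3694 and 4307 over all 7. Macrophage markers, relevant to F13a1, had a median of -0.43 over 8 genes and a summed signal of 10692 and 7496. Their part in the values of Thbs1 and F13a1 was not tested.

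**Figure D2:**
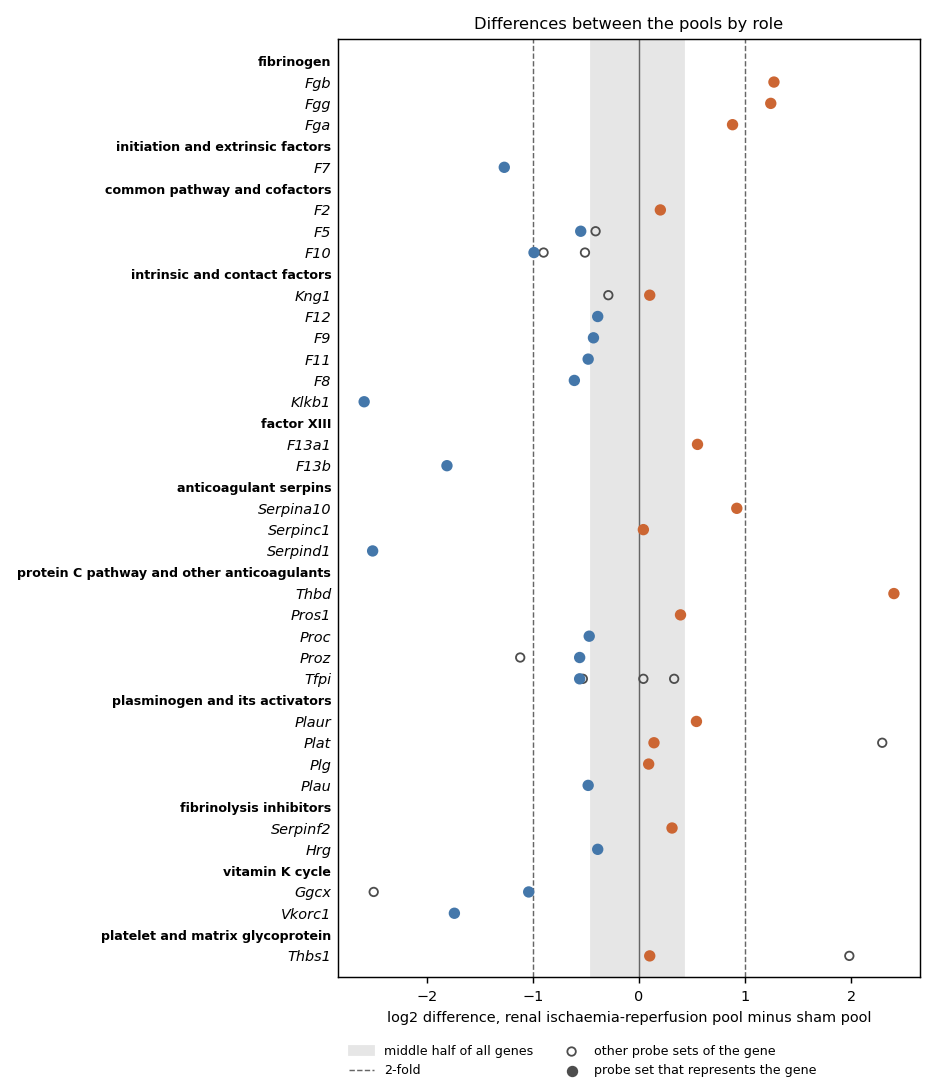
The log2 difference, injury pool minus sham pool, of the 32 genes by role, with filled points for the probe set that represents the gene (orange higher, blue lower) and open points for its other probe sets past the filter. The outlying open points of Plat, Thbs1 and Ggcx each rest on a signal under the array median. The grey band spans the quartiles of all genes, -0.45 to 0.42, and the dashed lines mark 2-fold. Fibrinogen lies right of the band as a group and the vitamin K cycle left of it, as does F7, alone in its group. The other groups have genes inside the band or on both sides of it.

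Both enzymes of the vitamin K cycle had lower signals. Vkorc1, the epoxide reductase that warfarin blocks, went from 13769 to 4098, a log2 difference of -1.74 (3.35-fold). Ggcx, the carboxylase that modifies the clotting factors, went from 1116 to 535.6 (-1.04), and a second probe set went from 430.8 to 63.2, under the array median, a bound of at least 1.65-fold lower. With a pseudocount of 64 the difference of Ggcx was -0.98, just under 2-fold. The 7 vitamin K dependent proteins among the 36 genes, F2, F7, F9, F10, Proc, Pros1 and Proz, had a median difference of -0.47. Of these 7, 5 were lower and 1, F7, was past 2-fold, against 50.7% and 9.59% of all genes. F10 joined F7 under the 3 scalings named above, while F2 and Pros1 had the positive values already given. Gas6, a further protein that this carboxylase modifies, was higher, from 1309 to 2767 (1.07). The related reductase Vkorc1l1 had signals of 614.0 and 937.1 (0.60).

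By broad function, the 12 procoagulant genes that entered, fibrinogen left out, had a median of -0.51, with 9 of 12 lower and 3 past 2-fold on that side. Of all genes, 50.7% were lower and 9.59% were past 2-fold on that side. The 8 anticoagulants had a median of -0.22, which turned to 0.04 without a filter, with a filter at the 75th percentile and by the probe set closest to 0. It was -0.45 by quantile normalization and -0.50 with the hybridisation controls as the zero point. It was -0.47 where both signals had to reach the medians, and also where probe sets with suffixes such as _s_at were left out. Of these 8, 4 had values above 0, Serpinc1 (0.04) among them, and 4 below, among them Tfpi, whose direction is not settled. The 6 fibrinolysis genes had a median of 0.11, which was -0.17 with the hybridisation controls as the zero point and -0.12 by quantile normalization. Fibrinogen, at 1.24, was the single role group of more than 1 gene whose median lay above the upper quartile of all genes. The 22 genes made mainly by hepatocytes had a median of -0.39, with 10 higher and 12 lower, against 49.3% and 50.7% of all genes. The 8 made mainly by endothelial or other cells had one of 0.12 (-0.16 against the hybridisation controls).

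Some of the genes are next to each other in the genome, by the RefSeq order of protein-coding genes in GRCm38.p6. Fgg, Fga and Fgb follow each other on chromosome 3, and all 3 were higher, by 1.24, 0.88 and 1.27. F7, F10 and Proz follow each other on chromosome 8 and were all lower, at -1.27, -0.99 and -0.56. On the same chromosome, Klkb1 and F11 are neighbours that arose from a common ancestor, and they differed from each other, at -2.59 and -0.48. Probe sets of such related genes can share sequence, and each of these values comes from a probe set annotated to a single gene.

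**Figure D3:**
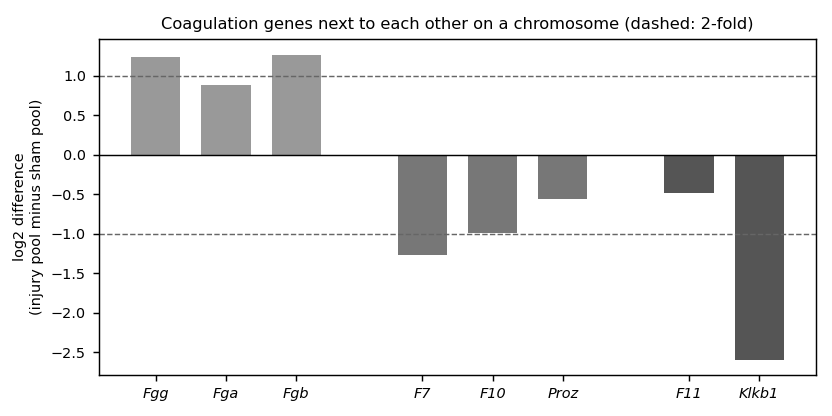
Bars give the log2 difference, injury pool minus sham pool, of coagulation genes that are next to each other on a chromosome, in 3 clusters, with 2-fold dashed. The fibrinogen cluster is higher throughout, the F7, F10 and Proz cluster lower throughout, and in the last cluster Klkb1 is far lower than its neighbour F11.

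Other genes of the pathway came from a list of 35, of which 26 entered. The list was chosen with earlier results of these data known, so its shares beside those of all genes are descriptive only. By measured signals 7 of 26 (26.9%) passed 2-fold on the higher side, against 8.71% of all genes, and 2 (7.69%) on the lower, against 9.59%. One of the 7, Fgl2, had a dim sham signal. Of the 25 genes with both signals at or above the medians, 6 (24%) were past 2-fold on the higher side, against 5.14% of all genes under that filter. The median was 0.16 (-0.12 against the hybridisation controls). Tgm2, transglutaminase 2, a relative of factor XIII, had the highest difference (3.64, signals 1952 and 24473). S100a10 and Anxa2 form the complex that binds plasminogen and its activator on cell surfaces. S100a10 stood at 3.07, on a probe set of the cross-hybridising _x_at type, and Anxa2 went from 1182 to 6439 (2.43). Both fibrinogen-like genes were also higher. Fgl1, a hepatocyte protein, went from 2895 to 17165 (2.56). Fgl2, a membrane prothrombinase, went from 56.5, under the array median, to 501.4, a bound of at least 1.9-fold. The lower genes were Hpn, hepsin, a membrane protease of hepatocytes that can activate factor VII (4754 and 1432, -1.72), and Asgr2, a chain of the receptor that clears desialylated plasma proteins (2944 and 1464, 2-fold).

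The complement genes, another cascade of plasma proteases from liver, were set beside the clotting genes. Of 28 listed, 23 entered, and 22 of these 23 were lower, or 95.7%, against 50.7% of all genes. Their median was -0.48, and 4 (17.4%) were past 2-fold, against 9.59% of all genes. One of the 4, C1qa, had an injury signal of 166.5, under the array median, while C1qb (-0.18) and C1qc (-0.07) differed little. With both signals at or above the medians, 3 of 21 (14.3%) were past 2-fold, against 6.17% of all genes under that filter. Of the 23, 5 were past 2-fold by quantile normalization, where 9.54% of all genes were, and 8 with the hybridisation controls, where 15.4% were. Under both scalings all 23 were lower. The median of all genes was -0.01 under the first and -0.30 under the second, so the second lowers genes in general. The clotting genes had a median of -0.39, with 17 of 32 lower, and with 21 and 23 of 32 lower under those 2 scalings. With 1 array per group, and lists chosen with earlier results of these data known, the difference between the lists was not tested.

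Pancreatic acinar markers were higher in the injury pool, with 6 of the 7 measured (10 listed) past 2-fold, against 8.71% of all genes. With the hybridisation controls as the zero point 4 of 7 were, against 5.76% of all genes. The largest differences, of Cpa1 (4.76) and Ctrb1 (3.13), rest on sham signals under the array median, 18.5 and 115.6. The median of the 7 was 1.66, and their signals summed to 5097 for sham and 13089 for injury. Stellate cell markers had a median of -0.42 over 6 of 7 genes and a summed signal of 7645 and 10936. Their part in the differences of the clotting genes was not tested.

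The directions of the larger differences held under the settings tried. All alternatives reprocessed the same arrays, and for differences this large a change of sign was unlikely from the start. The ranges therefore describe the processing and not the spread between mice. Klkb1 ranged from -2.87 to -2.49 over 13 alternatives, Serpind1 from -2.80 to -2.48, F13b from -2.10 to -1.78, Vkorc1 from -2.03 to -1.73 and F7 from -1.55 to -1.24. Thbd ranged from 2.12 to 2.48 over 12 alternatives. Genes within 0.2 of 0 had no settled direction. Under some alternative the sign turned for F2, Kng1, Serpinc1, Plg, Plat and Thbs1, and also for Tfpi.

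**Figure D4:**
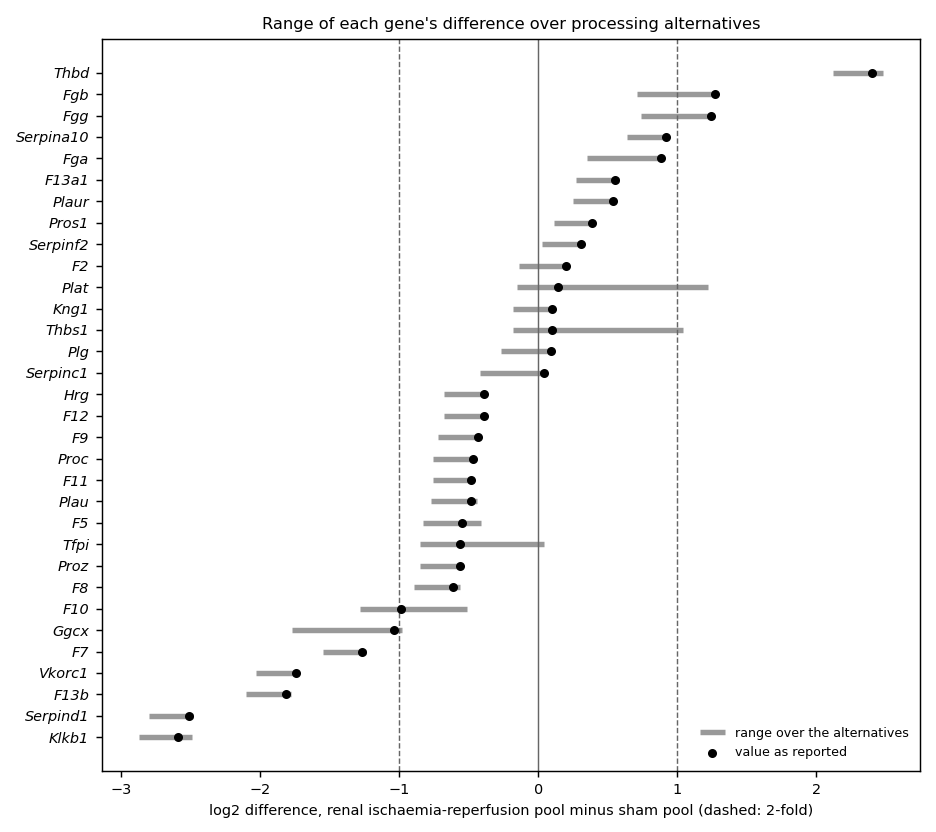
Black points give each gene's log2 difference, injury pool minus sham pool, and grey bars its range over the processing alternatives, with 2-fold dashed. Klkb1, Serpind1, F13b, Vkorc1 and F7 keep their whole range below the lower line and Thbd above the upper line, while the ranges of Fgb and Fgg cross it.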

How the data were processed

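Liver RNA of 2 pools, 1 sham and 1 renal ischaemia-reperfusion, was measured on 1 Affymetrix array each. Per the labels' protocols, RNA was extracted with Trizol and 6 ug was labelled with biotin. The authors deposited an intensity per probe set on a linear scale. Trimmed means (2% off each end) were equal (500.0), which shows a scaling before deposit. Sources used here do not give the summary software. Groups come from the treatment label.

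Of 45037 probe sets that are not controls, 34945 name 1 gene in the platform annotation, 932 several and 9160 none. For 34741 of the 34945 the Entrez ID was found in RefSeq and the RefSeq symbol was used, whether or not it differed. The 36 genes had 47 probe sets, 43 of them past the filter. Values were taken as log2(intensity + 16) with Python 3.11.15, pandas 2.3.3 and statsmodels 0.14.6. With 1 array per group no test was possible, and 2-fold was the threshold. For a gene dim in 1 pool, the bound sets the brighter signal against the dim array's median, each plus 16. The steps were tested on simulated arrays.

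All 36 genes were named. Of the further pathway genes, those past 2-fold were named, at most 5 in each direction. Gas6, Vkorc1l1 and some single markers were named outside this rule, with their values seen. The genes, lists and alternatives were chosen with earlier results of these data known. Promoter sequences are RefSeq's (GRCm38.p6).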

Additional observations from a re-analysis of the deposited data

How the results depend on the processing

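With 15 alternatives, the count of lower genes stayed between 5 and 7 where 2-fold was the threshold, against 6 as reported. At 1.5-fold it was 8 of 32, against 19.3% of all genes, and at 3-fold 4 of 32, against 4.49%. The count of genes at least 2-fold higher was 3 as reported. It was 1 by quantile normalization, 1 with the hybridisation controls as the zero point, where Fgb and Fgg missed 2-fold, and 1 at a 3-fold threshold. It was 2 where both signals had to reach the medians, which removed Thbd. It was 5 at a 1.5-fold threshold, where Fga and Serpina10 were added. With the mean of the probe sets it was also 5, as Plat and Thbs1 were added by probe sets with a dim sham signal. Of all genes, 18.7% were higher at 1.5-fold and 3.6% at 3-fold. At 2-fold, 8.7% of all genes were higher by quantile normalization and 5.76% with the hybridisation controls. That share was 5.14% where both signals had to reach the medians and 8.87% with the mean of the probe sets. F10 joined the lower genes by quantile normalization, with the loess trend removed and against the hybridisation controls, each with 7 lower. Of all genes, 9.54%, 9.76% and 15.4% were at least 2-fold lower under these 3 scalings. Of the clotting genes past 2-fold in either direction, 3 of 9 were higher as reported and 1 of 8 by quantile normalization or with the hybridisation controls. Among all genes, 1143 were higher and 1258 lower as reported, and 1141 and 1252 by quantile normalization. With the hybridisation controls 756 were higher and 2016 lower, so the background there leans to the lower side. These controls had a median log2 difference of 0.28, and using them moved the median of all genes to -0.30. The median of the 32 genes stayed negative, from -0.67 to -0.18. Of 408 values of single genes, 4 changed by over 1.5-fold, those of Plat (1.22), Thbs1 (1.04) and Ggcx (-1.77) by the mean of the probe sets and of Tfpi (0.04) by the probe set closest to 0. None past 2-fold changed sign, which was unlikely from the start with the same arrays reprocessed. The median of the anticoagulant serpins was -1.24 without Serpina10, and that of factor XIII -1.81 without F13a1, which a filter at the 75th percentile removed. No alternative could leave out a replicate, since each group has 1 array. Dim signals limit F3, Vwf and Procr, and the sham value of Thbd.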
